A study of Sus scrofa with 6 samples.

Results

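The genes described here are 41 genes of the DNA damage response and of DNA repair, chosen as a list of symbols and read from a table of 30376 genes in pig embryos at the 4-cell stage. All 41 were found by symbol, once each, and all 41 passed the filter on low counts and were tested. The list covers 5 kinases and partners of the damage checkpoint, 8 genes of break sensing, 8 of homologous recombination and 5 of end joining. It also covers 6 genes of base excision and single-strand break repair, 2 of mismatch repair, 4 of the Fanconi pathway and 3 of nucleotide excision repair. The choice of the list used no measured value of these libraries, although earlier results of the same libraries were known when it was made.

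The study addressed the effect of heat on zygotic genome activation. Pig oocytes were started into development by electrical pulses, which needs no sperm, and the embryos were kept in culture medium for 4 days. The control group (3 libraries, genotype given as WT) was cultured at 38.5 °C, and the high-temperature group (3 libraries, where the genotype field repeats the group name HT) at 41.5 °C. Each library was made from the poly(A) RNA of a pool of about 300 embryos, and no group carried a transgene or a drug in the labels.

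Cells answer broken or damaged DNA in layers. Sensor proteins bind the lesion, the kinases ATM and ATR pass the signal to CHEK1 and CHEK2, which hold the cell cycle, and separate repair routes then mend double-strand breaks, single-strand breaks, damaged bases, mismatches and crosslinks. Early embryos divide quickly on proteins and messages stored in the egg, and the pig embryo begins its main transcription at about the 4-cell stage, so transcripts measured here can be stored maternal RNA, newly made RNA or both.

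The libraries held 28114005 to 30079385 counts each. Of 12 oocyte and early embryo markers, 11 exceeded 1 TPM (a transcript level scaled by gene length and library) in all 6 libraries, with summed levels of 3276 to 3489 TPM in the control and 2837 to 3235 TPM at high temperature. Of 12 markers of cumulus and granulosa cells, the cells around the egg, 11 were found. Their summed level was 3.16 to 5.07 TPM in the control and 2.81 to 3.98 TPM at high temperature. Of these 11, 1 exceeded 1 TPM in all 6 libraries, and FSHR, INHA, AMH, FOXL2 and CYP11A1 were listed at 0 in all 6. The 10 stromal and blood markers summed to 3.78 to 5.49 TPM in the control and 3.96 to 4.88 TPM at high temperature. Of these 10, 1 exceeded 1 TPM in all 6 libraries and LUM was at 0. Control replicate 1 stood apart in its scaling, with a TMM factor (edgeR's correction of library size for composition) of 0.865 against 0.9996 to 1.09 in the other 5 libraries. Whether the 3 libraries of a group came from separate cultures is not in the labels, so every p below measures only the spread between these libraries. In pooled RNA, fewer embryos with a transcript and less of it per embryo cannot be told apart.

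No repair gene passed the test for a difference between 41.5 °C and 38.5 °C. With edgeR's quasi-likelihood test and Benjamini-Hochberg adjustment at 0.05 over 16056 genes, 0 of 41 were called, against 0% of all genes tested, and the adjusted p of each of the 41 was 0.999923. DESeq2 also called 0 of 41, against 0.0202% of 24749 genes. Before adjustment edgeR put 1 repair gene below 0.05, the recombination motor RAD54L (edgeR, unadjusted p = 0.0459), against 1.85% of all genes, and DESeq2 put 0 there.

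The differences were small and their intervals were fairly narrow. Log2 fold changes from edgeR, taken as 41.5 °C over 38.5 °C, ran from -0.46 for CHEK2 to 0.77 for XRCC1, with a median of -0.08 beside -0.02 over all genes tested. The 95% interval lay between a 2-fold fall and a 2-fold rise for 32 of 41 genes (78.0%, against 49.6% of all genes tested). It stayed below a 2-fold rise for 34 and above a 2-fold fall for 38. The 41 genes also had a higher median level than all genes tested (9.53 against 2.35 TPM). Whether that level accounts for the larger share of narrow intervals was not tested. For 40 of 41 genes the interval held 0. These intervals are those of the fit with group as its only term. With the replicate number as a further term, an alternative described at the end, the interval held 0 for 34 of 41 genes.

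Fitted values were lower at high temperature for 27 of 41 genes and higher for 14, a split that depended on the scaling. With library totals alone in place of TMM, 18 were lower and 23 higher, the median was 0.02, and the median of all genes tested moved from -0.02 to 0.08. Under DESeq2's size factors 27 were lower. The split also followed the level of the genes, as it did for the table as a whole. All 7 repair genes at 100 CPM (counts scaled to the TMM-corrected library size) or more were lower (median -0.26), where 78.7% of all genes of that level were lower (median -0.13). Between 10 and 100 CPM, 16 of 22 were lower (median -0.12, all genes -0.06). Between 1 and 10 CPM, 4 of 10 were lower (median 0.21, all genes 0.04), and neither of the 2 below 1 CPM was. With library totals alone, 6 of the 7 most abundant and 11 of the 22 in the next band were lower. Whether the level accounts for the split among repair genes was not tested.

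**Figure D1:**
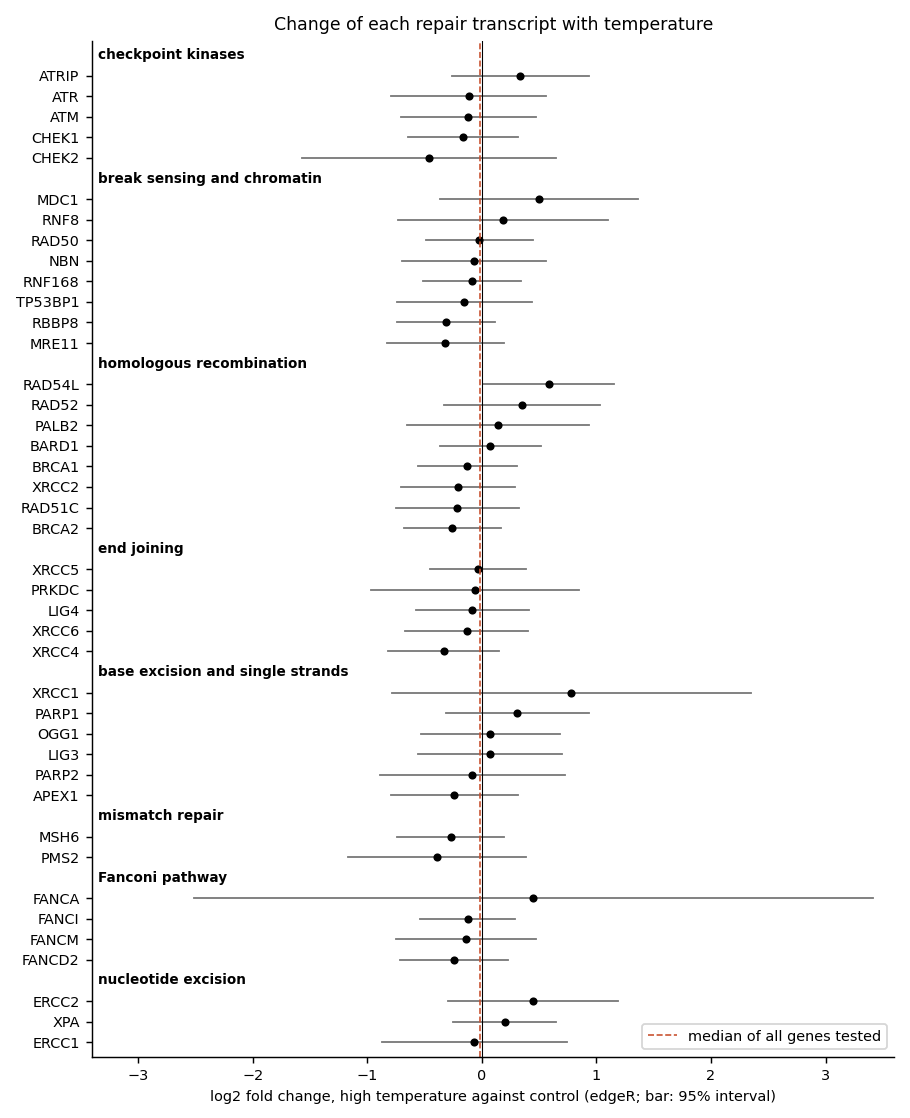
Each point is the log2 fold change of 1 repair gene at 41.5 °C against 38.5 °C from edgeR, with its 95% interval as a bar, grouped by role and ordered by value, and the dashed line is the median of all genes tested. The intervals of 40 of the 41 genes cross 0, RAD54L lies just to the right of it, and FANCA and XRCC1, which have few counts, have the widest bars.

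Most repair transcripts were well represented. The median level of the 41 genes, as a mean over 6 libraries, was 9.53 TPM against 2.35 TPM for all genes tested, and 30 of 41 lay above that value. There were 5 genes at 50 TPM or more, 15 between 10 and 50, 15 between 1 and 10, and 6 below 1. The first 4, XRCC4 (134 TPM), RBBP8 (113 TPM), BRCA2 (85.2 TPM) and CHEK1 (73.2 TPM), together made up 47.7% of the summed level. At the other end stood PRKDC (0.719 TPM), PMS2 (0.376 TPM), ERCC2 (0.340 TPM), MDC1 (0.224 TPM), XRCC1 (0.136 TPM) and FANCA (0.0636 TPM). Neighbours in this order mostly could not be separated: in 38 of 40 neighbouring pairs the ranges over the 6 libraries overlapped, the exceptions being RNF168 above XRCC5 and FANCD2 above TP53BP1. Summed over the 41 genes, the level was 863 ± 103 TPM in the control and 835 ± 93.5 TPM at high temperature (SD, n = 3 each), a difference smaller than the spread within either group.

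**Figure D2:**
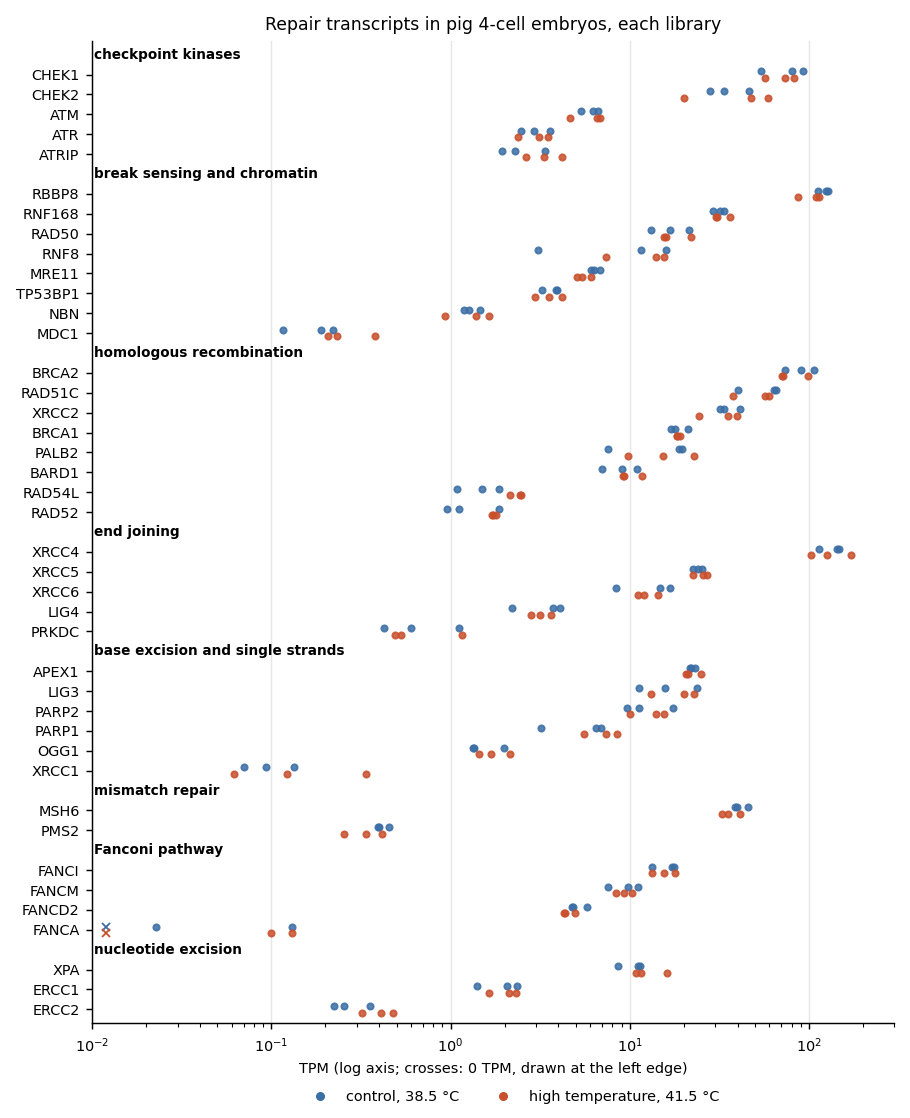
Each point is the TPM of 1 repair gene in 1 library (log axis), in blue for the 3 control and red for the 3 high-temperature libraries, grouped by role and ordered by level, with crosses for FANCA in the 2 libraries where it was listed at 0. Levels span from XRCC4 near 134 TPM to FANCA near 0.0636 TPM, and the colours overlap for all genes but RAD54L and MRE11.

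Among the checkpoint kinases, the pair of effector kinases had higher TPM than the kinases that activate them. In CPM, which is not scaled by gene length, the gap between CHEK2 and ATM was smaller. CHEK2, whose overlap with another gene is given below, averaged 112 CPM in the control and 81.0 CPM at high temperature, and ATM 59.3 and 54.7 CPM. CHEK1, which ATR phosphorylates to stop the cell cycle, averaged 73.2 TPM, and CHEK2, the substrate of ATM, 39.0 TPM. ATM itself averaged 6.04 TPM, ATR 2.998 TPM and ATRIP, the partner that brings ATR to single-stranded DNA, 2.95 TPM. CHEK1 exceeded CHEK2 in 5 of 6 libraries, with a ratio of their TPM between 0.962 and 4.10. The ratio of ATR to ATRIP ran from 0.572 to 1.87 and lay above 1 in 3 of 6 libraries, so their order could not be fixed.

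The kinase transcripts differed little between temperatures. CHEK1 stood at 123, 152 and 167 CPM in control replicates 1 to 3 and at 109.7, 142 and 144 CPM in the high-temperature replicates (log2 fold change -0.16, SE 0.21). ATM was measured at 69.8, 61.1 and 47.1 CPM in the control and 64.3, 60.5 and 39.2 CPM at high temperature (log2 fold change -0.12, SE 0.26), and ATR at 27.5, 18.5 and 15.1 against 22.6, 19.9 and 13.96 CPM (-0.11, SE 0.29). For all of these the groups overlapped, and the lowest library was replicate 1 for CHEK1 and replicate 3 for ATM and ATR in both groups. ATRIP had the highest fitted change of the role (0.34, SE 0.26), also with overlapping groups, and 4 of the 5 genes were fitted lower (3 of 5 with library totals alone).

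CHEK2 had the lowest fitted change of all 41 genes and the widest spread among those of 5 CPM or more. Its CPM was 189, 87.9 and 58.0 in the control and 110.2, 89.6 and 43.2 at high temperature. Control replicate 1 was the highest of the 6 and replicate 3 the lowest of each group, and the groups overlapped. The span within the control was 3.25-fold and within the high-temperature group 2.55-fold, against a fitted fold between the groups of 1.38 (log2 fold change -0.46, SE 0.48). Without control replicate 1 the fitted value turned to 0.15, and on the log2(FPKM + 1) scale it was 0.13. In TPM the means had the opposite order, 35.9 ± 9.31 in the control and 42.2 ± 20.0 at high temperature (SD, n = 3 each). The annotated span of CHEK2 (Sscrofa11.1, chromosome 14, 45699833 to 45967350, minus strand) overlaps TTC28 on the same strand over 225194 bases. How reads there were divided between the genes is not stated in the labels or headers.

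Among the break-sensing genes of the chosen list, RBBP8, also known as CtIP, had the highest TPM. Its protein starts the trimming of broken ends that commits a break to recombination. UBE2N, of the same role in a wider list described below, averaged 135 TPM against 113 TPM for RBBP8. RBBP8 stood at 334, 316 and 295 CPM in control replicates 1 to 3. In the high-temperature replicates it stood at 220.2, 291 and 250.3 CPM. Every high-temperature library lay below every control library. The log2 fold change was -0.31 (SE 0.19, 95% interval -0.74 to 0.12), and by edgeR its adjusted p was 0.999923.

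That separation was 1 of 2 among the 41 genes whose groups did not overlap, where 7.71% of all genes tested had such groups, and the only one with lower values at high temperature, where the share of all genes was 4.05%. It did not hold with library totals alone, in TPM or without high-temperature replicate 3. RBBP8 lies on chromosome 6 (107923921 to 108020067, plus strand) and overlaps a pair of uncharacterised loci on the other strand. Adding their counts left the groups apart, at 300.8 to 337 CPM in the control and 225 to 295 CPM at high temperature.

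The MRE11-RAD50-NBN complex, which holds broken ends and activates ATM, was present with unequal transcript levels. RAD50 averaged 17.4 TPM, the nuclease MRE11 5.96 TPM and NBN 1.31 TPM. RAD50 exceeded MRE11 by 1.93 to 4.32 times and MRE11 exceeded NBN by 3.67 to 5.81 times, in that order in all 6 libraries. MRE11 stood at 34.2, 26.4 and 24.4 CPM in the control and at 23.1, 25.5 and 19.5 CPM at high temperature (log2 fold change -0.32, SE 0.22). Control replicate 3 lay below high-temperature replicate 2, so the groups overlapped in CPM, although in TPM all 3 high-temperature values (5.06 to 6.04) lay below the controls (6.11 to 6.80). RAD50 and NBN were fitted at -0.02 and -0.07.

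The ubiquitin ligases that mark chromatin around a break differed in level. RNF168, which extends the ubiquitin mark that 53BP1 reads, averaged 32.0 TPM and exceeded RNF8, which lays down the first mark, by 1.98 to 9.47 times. RNF168 stood at 215, 190.3 and 179 CPM in the control and 179, 206 and 166 CPM at high temperature (log2 fold change -0.08, SE 0.19), with overlapping groups. A locus whose product the table also names RNF168, LOC102167889, held 0 to 11 counts a library, and reads shared with it could have been split. TP53BP1, the gene of 53BP1, which shields ends from trimming, stood at 34.8, 28.7 and 22.8 CPM in the control and 31.7, 26.0 and 19.8 CPM at high temperature (log2 fold change -0.15, SE 0.25). Replicate 3 was the lowest library of each group. The scaffold MDC1, at 0.224 TPM, had a fitted change of 0.50 (SE 0.37), and RNF8 one of 0.19 (SE 0.40), both with overlapping groups. With library totals alone, 5 of these 8 genes were fitted higher, against 2 of 8 on the TMM scale.

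Homologous recombination copies a break's sequence from the sister chromatid. Among its genes in the chosen list, BRCA2 was the most abundant transcript, ahead of RAD51C (54.1 TPM) and XRCC2 (34.3 TPM). Both RAD51C and XRCC2 help recombination proceed. RAD51AP1, of the same role in a wider list described below, averaged 231 TPM against 85.2 TPM for BRCA2. BRCA2, a central mediator of recombination, stood at 728, 746 and 848 CPM in the control and 593, 601 and 749 CPM at high temperature. High-temperature replicate 3 exceeded control replicates 1 and 2, so the groups overlapped (log2 fold change -0.26, SE 0.18). BRCA2 exceeded PALB2, which ties it to BRCA1, by 4.29 to 9.66 times in TPM.

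BRCA1 and BARD1 form one ubiquitin ligase, and BRCA1 exceeded BARD1 by 1.54 to 2.55 times in TPM. BRCA1 stood at 116, 114 and 92.2 CPM in the control and 101.0, 103 and 90.6 CPM at high temperature (log2 fold change -0.13, SE 0.19). In TPM its means were 18.6 ± 2.18 in the control and 18.6 ± 0.355 at high temperature (SD, n = 3 each). RAD51C stood at 78.6, 108.6 and 99.5 CPM in the control and 62.4, 92.8 and 91.8 CPM at high temperature (log2 fold change -0.22, SE 0.23). The groups overlapped for both genes, and replicate 1 was the lowest library for RAD51C in each. BARD1 and PALB2 were fitted at 0.07 and 0.14, and RAD52, which anneals single strands, at 0.35 (SE 0.30). Of the 8 recombination genes 4 were fitted higher and 4 lower, also with library totals alone.

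RAD54L, a motor protein that helps strand invasion, was the other gene whose groups did not overlap, and the only one with higher values at high temperature, where 3.66% of all genes tested had such groups. It stood at 2.85, 4.07 and 3.12 CPM in the control. In the high-temperature replicates it stood at 4.72, 5.42 and 4.90 CPM. All 3 high-temperature libraries exceeded all 3 control libraries, and it was the only one of the 41 genes for which the wider of its 2 within-group spans was smaller than the fold between groups. The means were 3.34 ± 0.641 and 5.02 ± 0.362 CPM (SD, n = 3 each), a fold of 1.498 (log2 fold change 0.58, SE 0.25, 95% interval 0.01 to 1.15). After adjustment over all genes by edgeR it did not pass (adjusted p = 0.999923).

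RAD54L was a low transcript (1.92 TPM), and the separation held under every alternative tried, including TPM. It ended when counts of an overlapping neighbour were added. RAD54L lies on chromosome 6 (165156833 to 165184641, minus strand) and overlaps LRRC41 on the opposite strand by 83 bases. LRRC41 held 0 counts in high-temperature replicate 3 and 30 to 50 in the other 5 libraries. Summed over both genes, the values were 4.08, 5.55 and 4.12 CPM in the control and 6.40, 7.16 and 4.90 CPM at high temperature, so that control replicate 2 exceeded high-temperature replicate 3. The library kit does not mark strand, so reads of the shared bases cannot be assigned by it.

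**Figure D3:**
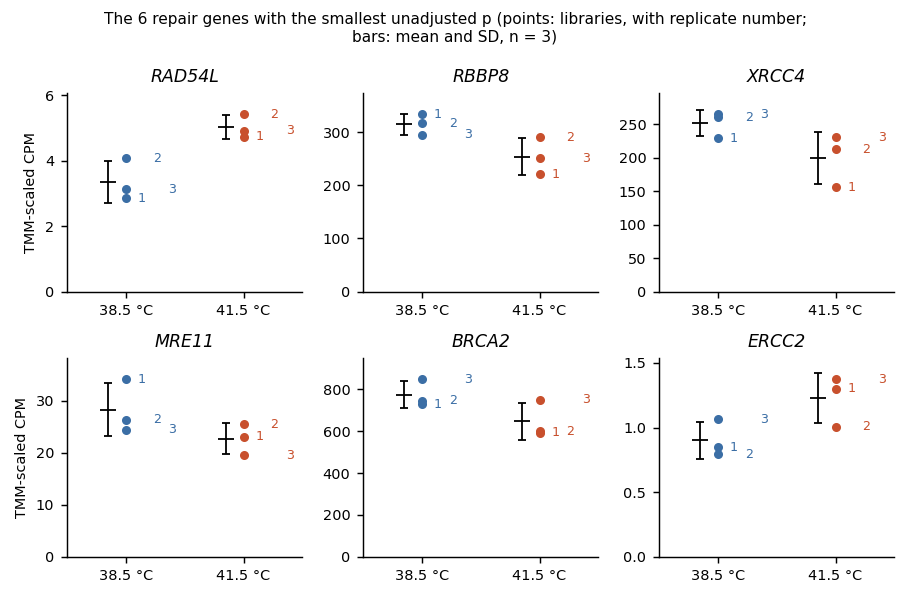
TMM-scaled CPM (axes from 0) of the 6 repair genes with the smallest unadjusted p, with a point per library, its replicate number beside it, and bars for the mean and SD (n = 3). The groups are apart for RAD54L (higher at 41.5 °C) and RBBP8 (lower), and overlap for XRCC4, MRE11, BRCA2 and ERCC2.

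End joining, which ligates broken ends without a template, combined the most abundant transcript of the 41 with PRKDC, 1 of the 6 below 1 TPM. XRCC4, the scaffold of the end-joining ligase, averaged 134 TPM, while LIG4, the ligase it holds, averaged 3.27 TPM. The ratio of their TPM was 32.5 to 51.3 over the 6 libraries. The Ku subunits XRCC5 (Ku80) and XRCC6 (Ku70), which clamp onto the ends, averaged 24.5 and 12.9 TPM, at a ratio of 1.51 to 2.68. PRKDC, the kinase that Ku recruits, averaged 0.719 TPM, and XRCC6 exceeded it by 12.5 to 24.4 times.

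All 5 end-joining genes were fitted lower on the TMM scale and 2 of 5 with library totals alone. XRCC4 stood at 229, 261 and 265 CPM in the control and 156, 212 and 231 CPM at high temperature (log2 fold change -0.33, SE 0.21). The groups overlapped by a narrow margin, control replicate 1 lying just below high-temperature replicate 3, and in TPM the means were close, at 135 ± 18.8 and 133 ± 34.9 (SD, n = 3 each). XRCC5 stood at 51.9, 46.0 and 46.4 CPM against 43.9, 51.8 and 45.5 CPM (-0.03, SE 0.18), and PRKDC at 6.12, 7.52 and 12.8 against 5.92, 6.60 and 12.9 CPM (-0.06, SE 0.39). PRKDC was about 2 times higher in replicate 3 than in replicate 1 of each group, a span of 2.09-fold in the control and 2.18-fold at high temperature. The intervals of all 5 genes stayed inside a 2-fold change.

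In base excision and single-strand break repair, APEX1, which cuts the strand where a damaged base was removed, averaged 22.2 TPM and LIG3, a ligase that seals nicks, 17.8 TPM. XRCC1, the scaffold that partners LIG3, averaged 0.136 TPM, and LIG3 exceeded it by 67.5 to 256 times, a ratio that rests on fewer than 60 counts of XRCC1 in every library. APEX1 stood at 37.2, 23.2 and 24.9 CPM in the control and 26.6, 23.0 and 22.5 CPM at high temperature (log2 fold change -0.24, SE 0.24). LIG3 stood at 50.5, 59.2 and 85.5 CPM against 50.3, 74.2 and 80.7 CPM (0.07, SE 0.27). Both genes had overlapping groups, and control replicate 1 was the highest library for APEX1.

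PARP1 and PARP2, which build poly(ADP-ribose) at breaks, were ordered with PARP2 above PARP1 in all 6 libraries, by 1.18 to 5.42 times in TPM. PARP1 stood at 10.8, 18.2 and 18.4 CPM in the control and 15.9, 20.9 and 21.9 CPM at high temperature (log2 fold change 0.31, SE 0.27). Control replicate 1 was the lowest library, and the groups overlapped. PARP2 and OGG1, which removes oxidised guanine, were fitted at -0.08 (SE 0.35) and 0.08 (SE 0.26). XRCC1 had the highest fitted change of the 41 (0.77, SE 0.68) with an interval from -0.78 to 2.35. In this role 4 of 6 genes were fitted higher, and 5 of 6 with library totals alone.

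Mismatch repair was represented by MSH6, which recognises mispaired bases, at 39.0 TPM, and by PMS2, which nicks the strand to be replaced, at 0.376 TPM. MSH6 stood at 154, 146 and 119 CPM in the control and 135, 107 and 105 CPM at high temperature (log2 fold change -0.27, SE 0.20). PMS2 stood at 1.38, 1.14 and 1.23 CPM against 1.20, 0.973 and 0.687 CPM (-0.39, SE 0.34). Both were lower in mean under either scaling, with overlapping groups.

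The Fanconi pathway repairs crosslinks between strands. FANCI and FANCD2 form the clamp that is ubiquitinated at a crosslink, and FANCI (15.8 TPM) exceeded FANCD2 (4.82 TPM) by 2.82 to 4.16 times. FANCI stood at 57.4, 61.1 and 60.1 CPM in the control and 48.4, 56.3 and 59.2 CPM at high temperature (log2 fold change -0.12, SE 0.18). FANCM, the motor that brings the pathway to stalled forks, stood at 78.0, 56.5 and 41.8 CPM against 60.8, 54.2 and 45.0 CPM (-0.14, SE 0.26). The groups overlapped for both, and for FANCM replicate 1 was the highest and replicate 3 the lowest library in each group. FANCD2 was fitted at -0.24 (SE 0.20). FANCA, a part of the ligase that modifies the clamp, had 0 counts in replicate 2 of each group. A count of 0 allows up to 3 counts, which is 0.103 and 0.105 CPM of the unscaled totals of these libraries, and its interval ran from -2.51 to 3.42.

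Nucleotide excision repair removes bulky lesions such as those of ultraviolet light. XPA, which checks the lesion, averaged 11.6 TPM, ERCC1, a subunit of the nuclease that cuts beside it, 1.99 TPM, and ERCC2, a helicase of TFIIH that opens the DNA, 0.340 TPM. XPA stood at 31.9, 34.5 and 34.5 CPM in the control and 34.0, 36.4 and 45.3 CPM at high temperature (log2 fold change 0.20, SE 0.20). High-temperature replicate 3 was the highest library and replicate 1 lay within the control range. ERCC2 stood at 0.846, 0.793 and 1.06 CPM against 1.30, 1.01 and 1.37 CPM (0.44, SE 0.32), and ERCC1 at 2.42, 1.24 and 1.69 against 2.05, 1.81 and 1.24 CPM (-0.07, SE 0.35). Neither had groups that were apart. The counts of NCBP1, which overlaps XPA by 11595 bases on the other strand, were also added to those of XPA. The sums were 64.0 to 66.2 CPM in the control and 67.2 to 78.7 CPM at high temperature and did not overlap. Over the 18 repair genes that overlap another gene, such sums were apart for XPA and RBBP8 alone. The share over all genes was not computed.

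The wider of the 2 within-group spans, the highest library over the lowest, exceeded the fitted fold between groups for 40 of 41 genes (97.6%). That share was close to the 96.9% of all genes tested. A span between extremes and a fold between group means are unlike measures, so this count does not rank the 2 kinds of spread. The median span was 1.49-fold and the median fold between groups 1.14. The highest library carried replicate number 3 in both groups for 16 of 41 genes (39.0%, against 27.6% of all genes), number 1 for 9 (22.0%, against 26.7%) and number 2 for 2. CHEK2, FANCM and ATR had their highest value in replicate 1 and their lowest in replicate 3 of each group. PRKDC and PALB2 had the reverse. The labels do not say that a replicate number marks a shared batch.

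**Figure D4:**
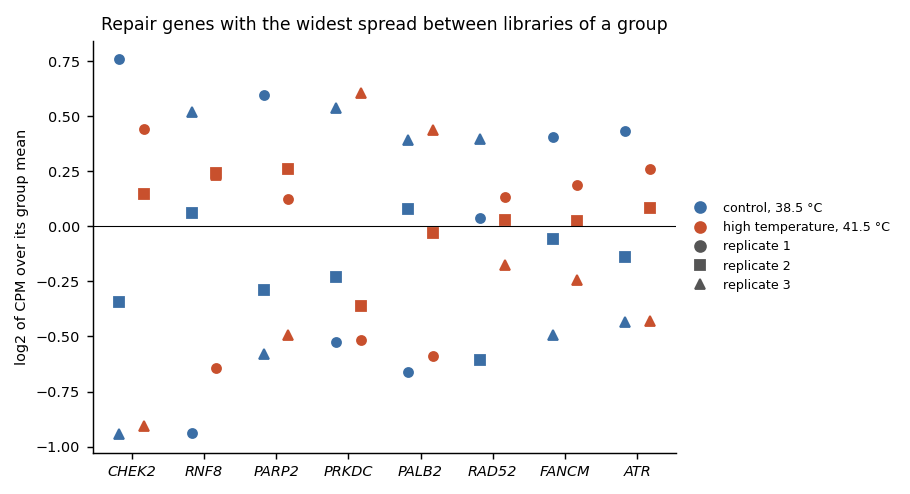
Each marker is the log2 of a library's CPM over the mean of its group, for the 8 repair genes of at least 5 CPM with the widest within-group span, with colour for temperature and shape for replicate number. CHEK2, FANCM and ATR are highest in replicate 1 of both temperatures, and PRKDC and PALB2 in replicate 3.

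A wider list of 131 repair genes outside the 41 was read for comparison, of which 123 were found by symbol and 116 tested. By edgeR 0 were called after adjustment and 3 (2.59%) had an unadjusted p below 0.05, against 1.85% of all genes tested, and by DESeq2 the counts were also 0 and 3. On the TMM scale 77 were lower and 39 higher at high temperature (median -0.10), and with library totals alone 58 and 58 (median -0.0015). In CPM, on the TMM scale, groups did not overlap for 14 of them (12.1%, against 7.71% of all genes tested). Of these, 4 were higher (3.4%, against 3.66%) and 10 lower (8.6%, against 4.05%). In TPM some of these 10, among them FANCC and CETN2, had overlapping groups. Whether these shares hold with library totals alone was not tested.

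The genes that feed the ATR checkpoint gave 4 of those 10 lower genes, from 11 genes tested. Of these 4, TIPIN had overlapping groups in TPM (55.2 to 64.3 in the control, 43.5 to 59.6 at high temperature), and the others did not. This role was picked out of the wider list without having been planned, so its counts describe these genes and do not test the role. Other roles of that list split differently, from 5 of 7 end-joining genes fitted higher to 4 of 4 mismatch repair genes fitted lower. Of these 11, which include the subunits of RPA, the coat of single-stranded DNA, and of the clamp that HUS1 belongs to, 10 were fitted lower (median -0.34, and 9 of 11 with a median of -0.24 with library totals alone), where 52.5% of all genes tested were lower (median -0.02). Of the 11, 5 lay at 100 CPM or more, a level at which 78.7% of all genes were lower, and 5 between 10 and 100 CPM, where 61.9% were. RPA3, the smallest RPA subunit (294 TPM), stood at 247, 212 and 228 CPM in the control and 149.7, 158 and 174 CPM at high temperature (log2 fold change -0.51, SE 0.18). All 3 high-temperature libraries were lower, and edgeR gave an unadjusted p of 0.0204 and an adjusted p of 0.999923. HUS1 (297 TPM) was also lower in every high-temperature library, at 226 to 267 CPM against 268 to 344 CPM (-0.23, SE 0.19).

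Of the 3 genes of the wider list below 0.05 before adjustment, RPA3 and FANCC were lower and L3MBTL1 higher. FANCC, a Fanconi core gene, stood at 6.73, 9.93 and 8.30 CPM against 4.48, 6.11 and 5.53 CPM (-0.63, SE 0.25). L3MBTL1, which reads methylated histones, stood at 0.423, 0.345 and 0.199 CPM against 0.856, 0.660 and 0.850 CPM (1.29, SE 0.46). Both had groups that did not overlap in CPM, and L3MBTL1 rests on few counts. In TPM the groups of FANCC overlapped, control replicate 1 (3.01) lying below high-temperature replicates 2 and 3 (3.26 and 3.49). Those of L3MBTL1 stayed apart. The most abundant of the list was CETN2 (2441 TPM), a centrin that also serves lesion recognition, at 2528, 2632 and 2322 CPM in the control and 1689, 2178 and 1916 CPM at high temperature (-0.37, SE 0.18). The groups of CETN2 were apart too in CPM, but in TPM control replicate 1 (2358) lay below high-temperature replicate 2 (2417). FANCL (242 TPM), RAD51AP1 (231 TPM) and POLB (152 TPM) had overlapping groups and fitted changes of -0.15, -0.003 and -0.12.

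**Figure D5:**
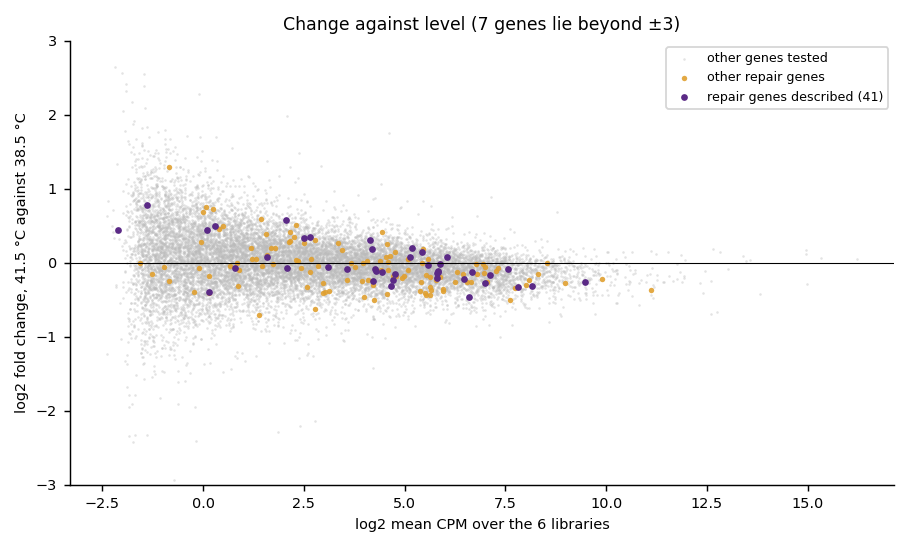
Each point is 1 gene tested, at its log2 mean CPM over 6 libraries and its log2 fold change at 41.5 °C against 38.5 °C, with the 41 repair genes in purple, the wider repair list in orange and all others in grey (7 genes lie beyond the axis limit of 3). The orange and purple points lie inside the grey cloud, which itself sits below 0 at high levels.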

How the data were processed

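Counts of reads for each gene are whole numbers without scaling and were deposited by the authors, per the file headers. The deposited FPKM and TPM values of the authors stand beside them and are scaled by gene length and library size. Per the submitters' processing notes, the tools were Trimmomatic 0.38, HISAT2 2.1.0, HISAT, Bowtie2 and StringTie 2.1.3b and the build was Sscrofa11.1. What counted the reads, and how it treated overlapping genes, is not stated there, so 18 of the 41 genes, whose spans overlap another gene, may share its reads. Rows without a symbol (24) took 0.527% to 0.658% of a library's counts.

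Libraries were grouped by their labels, and the columns were checked against the FPKM in the file of each sample. Counts were fitted with edgeR 4.0.16 under R 4.3.3 (quasi-likelihood, TMM, default filter, group only), with Benjamini-Hochberg adjustment over the 16056 genes kept. The SE and 95% intervals come from that fit, and CPM is on the TMM scale. The alternatives were DESeq2 1.42.0, limma 3.58.1 on log2(FPKM + 1) or log2(FPKM + 0.1) with a mean FPKM of at least 1, other scalings and filters, a replicate term and leaving out each library. The scripts were tested on simulated data. Positions were those of a RefSeq gene table of Sscrofa11.1 for all 41. Floors from counts cover counting error only.

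The 41 genes, the wider list and the tests were chosen with earlier results of these data known. The genes with values for each library are any called, the 6 with the smallest unadjusted p, the 2 with the highest TPM in each role and ATM, ATR, CHEK1, CHEK2, TP53BP1, BRCA1, BRCA2, PRKDC and PARP1. From the wider list, the 4 with the smallest p and the 6 with the highest TPM are named, with UBE2N for its level and TIPIN for its overlap in TPM. Partner pairs, level bands and the genes of widest spread were chosen after their values were seen. The account of the ATR checkpoint role of the wider list was not planned either.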

Additional observations from a re-analysis of the deposited data

How the results depend on the processing

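Under each of the 13 alternatives fitted, 0 of the repair genes it held were called, from the 41 or from the wider list. The limma fits, with their minimum mean FPKM, held only 34 of the 41 and 83 of the wider list. In the whole table DESeq2 called 5 genes, edgeR without a filter 1, and edgeR with a replicate block 3, against 0 as reported. The replicate block left the median of the 41 genes at -0.08 and called 0 of them (smallest adjusted p 0.4536 by edgeR). It narrowed their intervals from a median width of 1.17 to 0.65 on the log2 scale, and put 7 of 41 below an unadjusted p of 0.05 (CHEK2, RBBP8, BRCA2, RAD54L, XRCC4, PARP1 and MSH6), against 9.25% of all genes tested with the block. Deviations from the group means correlated at 0.642, -0.002 and 0.721 for libraries of the same number, and control replicate 2 correlated best with high-temperature replicate 3 (0.155). Replicate 1 of the control against 3 of high temperature gave -0.699, and 3 against 1 gave -0.65. The 3 deviations of a group sum to 0, so these correlations depend on each other. Whether the libraries numbered 2 shared a batch was not tested. The labels name no shared batch, so the block was kept as an alternative. Whether replicates 1 and 3 each shared a batch across the groups was not tested.

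Repair genes whose groups did not overlap numbered 2 as reported (4.88%, against 7.71% of all genes tested), 4 with DESeq2's size factors (RAD54L, XRCC4, RBBP8 and BRCA2, 9.76% against 7.99%) and 1 with library totals alone (RAD54L, 2.44% against 7.36%). With any 1 library left out, so that fewer values must separate, they numbered 4 to 9, or 9.76% to 21.95% against 12.49% to 18.5% of all genes. TPM, an alternative chosen after seeing the data, gave 2 (RAD54L and MRE11, against 7.23% of all genes).

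The median log2 fold change of the 41 genes was -0.08 as reported, 0.0174 with library totals alone, 0.0033 on log2(FPKM + 0.1), 0.0030 on log2(FPKM + 1) and -0.15 to -0.0064 with 1 library left out, the last without control replicate 1. For the wider list it was -0.10 as reported, -0.0015 with library totals alone, -0.0210 and -0.0234 on these FPKM scales and -0.1103 to -0.0636 with 1 library left out, the value nearest 0 without high-temperature replicate 3. The cause of these shifts was not tested. Leaving out the genes that overlap another gave -0.08. Of the 41 genes, 21 kept the sign of their fitted change under all alternatives that held them and 20 changed it at least once, none of them called. Few counts limit 5 genes, with fewer than 60 in every library.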
